A study of Sus scrofa with 6 samples.

Results

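Interferon-stimulated genes are the genes that cells switch on when an interferon binds its receptor, and they were followed here in the subcutaneous fat of pigs fed resveratrol, a plant polyphenol. The list held 39 symbols, which name 38 genes because RIGI and DDX58 are the current and the older name of 1 gene. Members were the rows of the deposited tables whose pig Ensembl identifier carries a listed symbol, which gave 35 of 22844 rows. No row carried the identifier of IFIT3, OAS1 or XAF1, and these 3 genes were not analysed here.

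The animals were a Duroc, Landrace and Yorkshire cross. The resveratrol group, 3 libraries named resveratrol 1 to 3, came from a diet with 400 mg/kg resveratrol, and the control group, 3 libraries named control 1 to 3, from a control diet. Total RNA was sequenced after a preparation for long non-coding RNA. Age and sex are not in the labels. Nor do they say whether each library is a different pig, so the p-values below reflect the scatter of these 6 libraries, part of which may be technical.

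Library totals were 34436239 to 37943877 reads in resveratrol and 16251536 to 34048559 reads in control, with control 2 the shallowest. The labelled tissue was checked against adipocyte markers. ADIPOQ, which encodes adiponectin, averaged 4565 ± 123 TPM in resveratrol and 3817 ± 215 TPM in control, and the fatty acid carrier FABP4 averaged 16830 ± 2833 TPM in resveratrol and 15760 ± 3408 TPM in control (SD, n = 3 each). All 4 skeletal muscle markers with a row lay below 0.5 TPM on average. Tendon and cartilage markers set control 1 apart, with a summed level of 341 TPM there. Control 3 followed with 68.9 TPM, and the remaining libraries had 17.7 to 32.2 TPM. TPM is a transcript abundance scaled for length, and it is used below for levels between genes. Read counts divided by a library size that was adjusted by the trimmed mean of M values (TMM), called scaled CPM below, are used to compare libraries. Values of 3 libraries are given in the order 1, 2 and 3 of each group.

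In the textbook pathway, type I interferons bind IFNAR1 and IFNAR2, the kinases JAK1 and TYK2 are activated, and a complex that holds STAT2 and IRF9 enters the nucleus and binds the promoters of these genes. Their products degrade, edit or sequester viral RNA, hold viruses at membranes, and include the RNA sensors and transcription factors that amplify the response. Interferon gamma acts through its own receptor and induces an overlapping set that includes IRF1, the guanylate-binding proteins and CXCL10. The roles given below are those known from human and mouse. In fat, adipocytes, macrophages and endothelial cells can all express such genes. Since the tissue was sequenced in bulk, fewer cells of a type and less RNA per cell cannot be told apart.

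The members ran over a wide range of levels. IFI6, a small mitochondrial membrane protein, had the highest mean, with 645 ± 161 TPM in resveratrol and 672 ± 373 TPM in control. GBP1, a GTPase that attacks intracellular microbes, averaged 58.6 ± 8.19 TPM in resveratrol and 79.2 ± 28.0 TPM in control. BST2, the membrane tether that holds budding viruses, averaged 69.2 ± 29.9 TPM in resveratrol and 67.6 ± 31.4 TPM in control. Over all 6 libraries GBP1 and BST2 averaged 68.9 and 68.4 TPM, a difference far inside their spread, so their order is not resolved.

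Below these came ISG15, IFIT1, STAT2 and CXCL10, with means over the 6 libraries of 40.9, 36.2, 31.7 and 29.0 TPM. Another 14 members, which included MX2, IRF9, IFIT2, USP18 and RSAD2, lay between 10.0 and 20.4 TPM. MX1 averaged 9.47 TPM, and 11 further members lay below it, down to DHX58 at 1.69 TPM. The last, the exonuclease ISG20, averaged 0.682 TPM on 4 to 26 reads per library. OASL had 0 to 3 reads per library, and was the only member with a row that lay below the filter of 0.5 TPM on average, which left 34 members tested. The summed level of the 35 members was 1389, 907 and 1252 TPM in resveratrol, against 831, 1821 and 1007 TPM in control. The groups overlapped, and control held both the lowest and the highest sum.

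**Figure D1:**
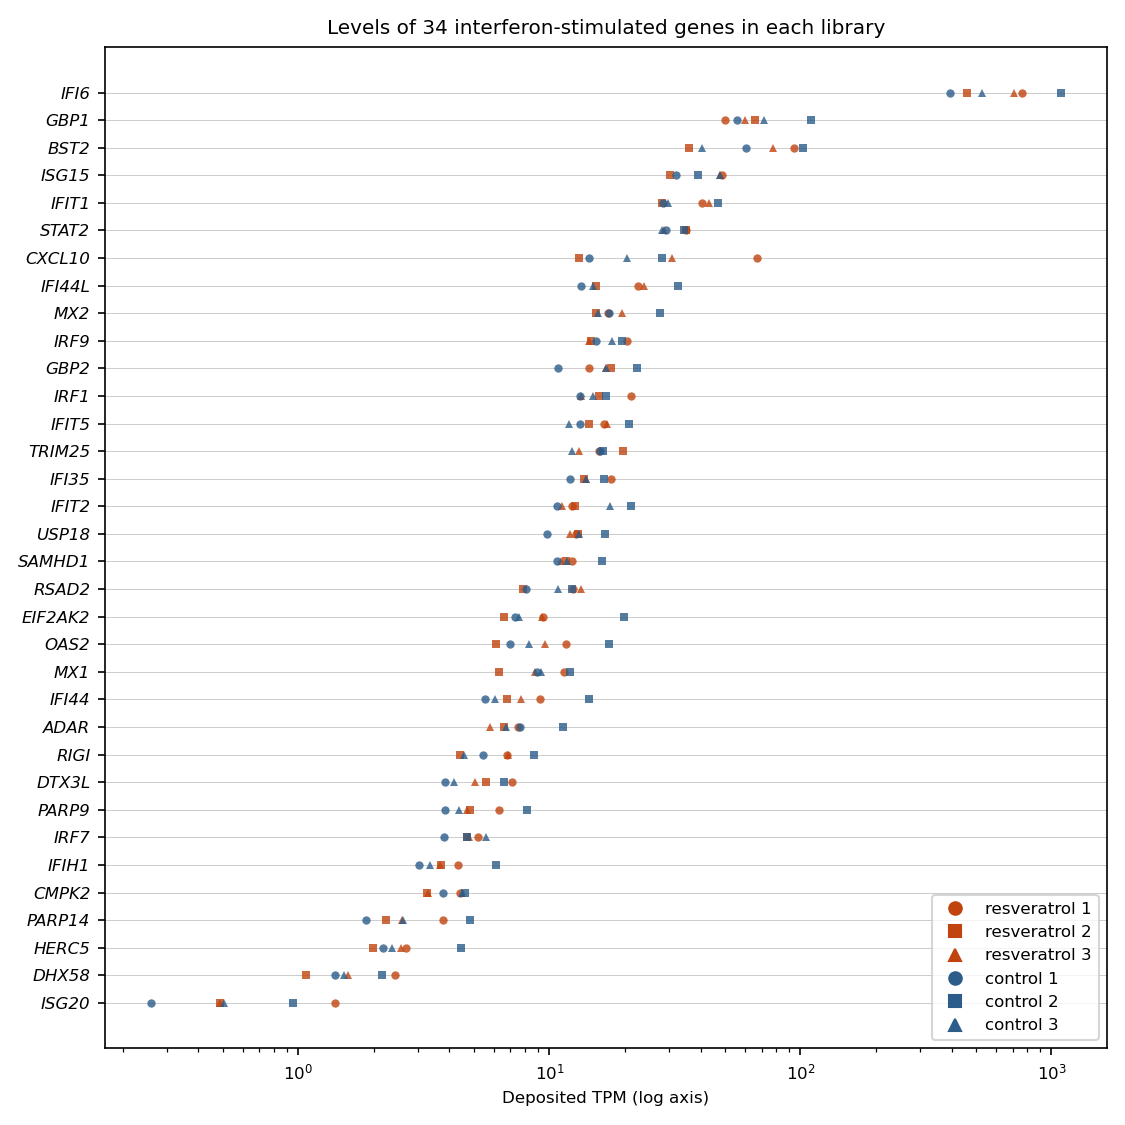
Deposited TPM (log axis) of the 34 members tested, with 1 point per library, resveratrol in red and control in blue, ordered by mean. IFI6 lies above all others, and the points of the groups are interleaved in most genes, with control 2 often the highest.

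The first question was whether any member differed between the diets. By edgeR's quasi-likelihood test, 0 of 34 members passed a Benjamini-Hochberg adjusted p under 0.05, and 0 of all 14908 rows did (0%). The smallest adjusted p of a member was 0.733, for CXCL10. At an unadjusted p under 0.05, 0 members were higher in resveratrol, where 2.21% of all rows were, and 0 were lower, where 4.32% of all rows were. DESeq2 called 40 rows and no member. The median log2 fold change of the members was 0.09, beside -0.0075 over all rows, with 23 estimates above 0 and 11 below, where 48.8% of all rows were above 0. By limma on log2(TPM + 0.5) the split was 17 above and 17 below, with a median of -0.00087, beside -0.079 over all rows. Leaving out 1 library at a time moved the members' median by edgeR between -0.06 (without control 1) and 0.23 (without control 2).

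How large a difference these libraries leave room for is shown by the 95% intervals of the fold changes. For 30 of 34 members the interval lay within a 2-fold change in either direction, as it did for 11059 of all 14908 rows. The exceptions among the members were CXCL10 (-0.21 to 2.10 on the log2 scale), ISG20 (-0.84 to 2.19), BST2 (-0.70 to 1.03) and EIF2AK2 (-1.02 to 0.44). In 25 of 34 members the size of the log2 fold change was below the pooled SD of log2 scaled CPM within the groups. The same count over all rows is not given here.

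**Figure D2:**
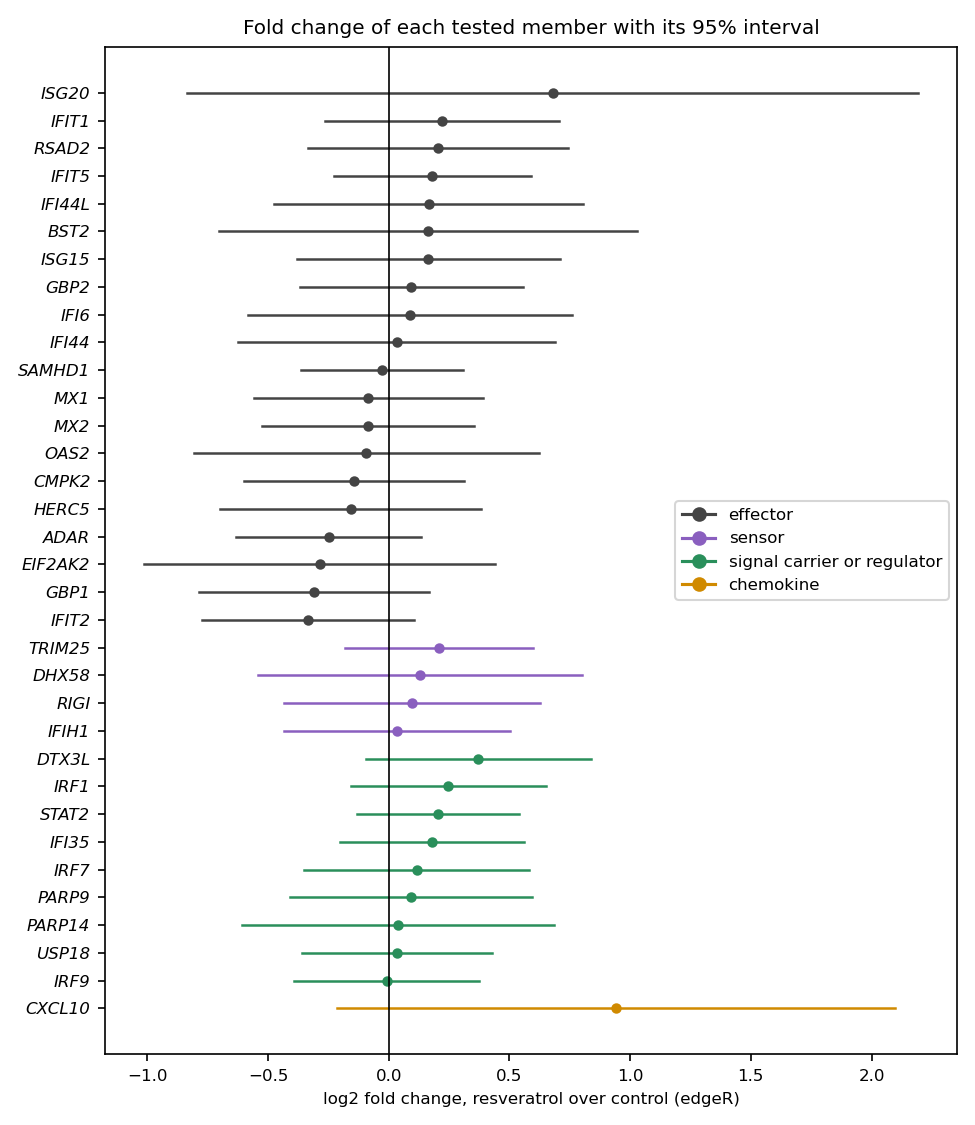
Log2 fold change of each tested member, resveratrol over control, as points with 95% intervals from edgeR, coloured by role. Every interval includes 0, and those of CXCL10 and ISG20 are the widest.

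The largest group was that of the effectors, the proteins that act on viral RNA, viral proteins or membranes, with 20 members tested. Their log2 fold changes were split evenly, 10 above 0 and 10 below, with a median of 0.0016. By limma on log2(TPM + 0.5) the median was -0.064, beside -0.079 over all rows. The dynamin-like GTPase MX1 (ENSSSCG00000012077.4), which traps viral nucleocapsids, measured 37.5, 20.5 and 31.8 scaled CPM in resveratrol, against 30.2, 33.9 and 31.2 scaled CPM in control. The control libraries lay close together inside the resveratrol range, and the log2 fold change was -0.08 (SE 0.21, adjusted p = 0.941). For its paralog MX2 the log2 fold change was -0.09 (SE 0.20).

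ISG15 (ENSSSCG00000040575.1), a ubiquitin-like protein that is joined to newly made proteins, measured 23.1, 14.2 and 24.5 scaled CPM in resveratrol, against 16.1, 15.5 and 23.5 scaled CPM in control. Both groups held a library above 23 and one below 16, and the log2 fold change was 0.16 (SE 0.25, adjusted p = 0.888). HERC5, the ligase that attaches ISG15, measured 13.3, 9.90 and 14.0 scaled CPM in resveratrol, against 11.0, 18.9 and 11.8 scaled CPM in control. Control 2 was highest, and the log2 fold change was -0.16 (SE 0.24). USP18, which removes ISG15 and also blocks the receptor subunit IFNAR2, had 17.1 to 17.8 scaled CPM in resveratrol and 13.6 to 19.1 scaled CPM in control, with a log2 fold change of 0.03 (SE 0.18).

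The IFIT proteins bind the ends of foreign RNA. IFIT1 (ENSSSCG00000010452.3) measured 93.2, 63.8 and 109 scaled CPM in resveratrol, against 67.2, 91.1 and 69.6 scaled CPM in control, a log2 fold change of 0.22 (SE 0.22, adjusted p = 0.812). IFIT2 (ENSSSCG00000010451.3) measured 27.3, 27.7 and 27.1 scaled CPM in resveratrol, against 24.5, 39.7 and 39.5 scaled CPM in control. Its resveratrol libraries were nearly equal while control 1 lay below them and control 2 and 3 above, and its log2 fold change of -0.34 (SE 0.20, adjusted p = 0.735) was the lowest of all members. Without control 1 it was -0.53. IFIT5 had a log2 fold change of 0.18 (SE 0.18). In the RefSeq gene table (assembly Sscrofa11.1) IFIT2, IFIT3 and IFIT1 lie next to each other. The spans of IFIT1 and IFIT2 overlap that of LIPA. Exons were not compared, so whether reads of these genes are shared is not known.

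RSAD2, also called viperin, makes a nucleotide analogue that stops viral polymerases, and its neighbour CMPK2 encodes a mitochondrial nucleotide kinase. RSAD2 (ENSSSCG00000008648.4) measured 18.6, 11.5 and 21.97 scaled CPM in resveratrol, against 12.6, 15.8 and 16.7 scaled CPM in control. The resveratrol libraries spanned the control range on both sides, and the log2 fold change was 0.20 (SE 0.24, adjusted p = 0.854). CMPK2 had a log2 fold change of -0.15 (SE 0.21).

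EIF2AK2, the kinase PKR that halts translation when it meets double-stranded RNA, measured 24.4, 16.8 and 26.4 scaled CPM in resveratrol, against 19.3, 43.5 and 20.0 scaled CPM in control. Control 2 stood above the other 5 libraries. The log2 fold change was -0.29 (SE 0.32, adjusted p = 0.843), and it turned to 0.20 without control 2. OAS2, which makes the oligoadenylates that activate RNase L, had 19.7 to 38.6 scaled CPM in resveratrol and 23.5 to 48.4 scaled CPM in control, again with its highest value in control 2. ADAR, which edits adenosine to inosine in double-stranded RNA, measured 45.3, 39.3 and 38.6 scaled CPM in resveratrol, against 47.0, 58.1 and 41.3 scaled CPM in control. The groups overlapped only through resveratrol 1 and control 3, and the log2 fold change was -0.25 (SE 0.17, adjusted p = 0.750).

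IFI6 (ENSSSCG00000034570.1) measured 232, 138 and 232 scaled CPM in resveratrol, against 126, 274 and 166 scaled CPM in control, a log2 fold change of 0.09 (SE 0.30, adjusted p = 0.959). BST2 (ENSSSCG00000033453.1) measured 49.4, 18.7 and 44.6 scaled CPM in resveratrol, against 33.7, 44.996 and 22.2 scaled CPM in control, a log2 fold change of 0.16 (SE 0.38, adjusted p = 0.933). In both genes resveratrol 2 lay at or near the bottom and control 2 at or near the top. GBP1 (ENSSSCG00000024973.2) differed from these in that resveratrol 1 was its lowest library, with 143, 188 and 189 scaled CPM in resveratrol, against 165, 269 and 211 scaled CPM in control (log2 fold change -0.31, SE 0.21, adjusted p = 0.750). Its neighbour GBP2 had a log2 fold change of 0.09 (SE 0.21). ISG20 measured 0.693, 0.212 and 0.234 scaled CPM in resveratrol, against 0.135, 0.337 and 0.261 scaled CPM in control. Its log2 fold change of 0.68 (SE 0.68) rested on resveratrol 1, and was -0.08 without that library. IFI44, IFI44L and SAMHD1, a hydrolase of deoxynucleotides, gave log2 fold changes of 0.03, 0.17 and -0.03. Control 2 was the highest library of IFI44 and IFI44L, and without it their log2 fold changes were 0.49 and 0.54.

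The cytosolic RNA sensors and their ligase had 4 members, whose estimates all lay slightly above 0 by edgeR. By limma on log2(TPM + 0.5), 3 of 4 lay below 0, with a median of -0.025, beside -0.079 over all rows. The log2 fold changes by edgeR were 0.10 (SE 0.24) for RIGI and 0.03 (SE 0.21) for IFIH1, which encodes MDA5. They were 0.13 (SE 0.30) for DHX58, which encodes LGP2, and 0.21 (SE 0.17) for TRIM25, a ubiquitin ligase that acts on RIG-I. Adjusted p-values were 0.779 to 0.978 by edgeR's quasi-likelihood test.

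Among the 9 signal carriers and regulators, 8 estimates lay above 0 (6 by limma on log2(TPM + 0.5)) and none passed the test. Their median log2 fold change was 0.12. STAT2 (ENSSSCG00000000396.3), a subunit of the nuclear complex, measured 156, 154 and 140 scaled CPM in resveratrol, against 133, 130 and 128 scaled CPM in control. It was the only one of 34 members in which every resveratrol library lay above every control library, which 5.67% of all rows did, and no member had every resveratrol library below, which 6.97% of all rows did. The log2 fold change was 0.20 (SE 0.15, adjusted p = 0.758). On the TPM scale STAT2 overlapped, with 34.9, 35.0 and 28.7 TPM in resveratrol, against 29.2, 34.2 and 28.0 TPM in control.

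IRF9, the DNA-binding subunit of that complex, measured 37.7, 26.8 and 29.2 scaled CPM in resveratrol, against 29.4, 30.8 and 34.04 scaled CPM in control. Its log2 fold change was -0.01 (SE 0.17, adjusted p = 0.996). IRF7, the factor that switches on interferon genes themselves, measured 11.6, 10.2 and 12.1 scaled CPM in resveratrol, against 8.85, 9.15 and 13.2 scaled CPM in control (log2 fold change 0.12, SE 0.21). Control 3 lay above all 3 resveratrol libraries, and control 1 and 2 below them. IRF1, a target of interferon gamma, measured 28.5, 21.0 and 19.8 scaled CPM in resveratrol, against 18.5, 19.0 and 20.8 scaled CPM in control (log2 fold change 0.25, SE 0.18). Resveratrol 1 alone stood clear of the other libraries.

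DTX3L and PARP9 encode a ubiquitin ligase and its partner ADP-ribosyltransferase, and their spans overlap in RefSeq. DTX3L (ENSSSCG00000011876.3) measured 21.8, 17.0 and 16.6 scaled CPM in resveratrol, against 11.8, 18.3 and 12.8 scaled CPM in control, a log2 fold change of 0.37 (SE 0.21, adjusted p = 0.733). Control 2 was the library that brought the groups to overlap, and without it the log2 fold change was 0.58. PARP9, PARP14 and IFI35 gave log2 fold changes of 0.09, 0.04 and 0.18.

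CXCL10 (ENSSSCG00000032474.1), the secreted member, is the chemokine that draws T and NK cells through CXCR3. It measured 11.8, 2.28 and 5.91 scaled CPM in resveratrol, against 2.67, 4.04 and 3.75 scaled CPM in control. Resveratrol held both the lowest library and the highest, which had 443 reads. With a log2 fold change of 0.94 (SE 0.51, adjusted p = 0.733 by edgeR's quasi-likelihood test) it had the largest estimate of all members. The estimate was 0.24 without resveratrol 1 and 1.35 without resveratrol 2.

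The second question was how the members varied between libraries whatever the diet, a pattern that was chosen for description after the values were seen. In resveratrol, 30, 5 and 26 of 34 members lay above their own mean over the 6 libraries, against 3, 26 and 10 of 34 in control, where each library had 48.5% to 50.4% of all rows above their mean. The members thus stood high in resveratrol 1, resveratrol 3 and control 2 and low in resveratrol 2, control 1 and control 3. These last were the 3 lowest libraries for 17 of 34 members, as they were for 8.64% of all rows. Within the resveratrol group, resveratrol 2 was lowest for 25 members (73.5%, beside 33.3% of all rows). Within the control group, control 1 was lowest for 26 (76.5%, beside 28.0% of all rows).

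Measured by the median log2 deviation from the gene's mean, the members stood at 0.21, -0.24 and 0.07 in resveratrol, against -0.25, 0.21 and -0.11 in control, while the median of all rows was between -0.0087 and 0.0031. The distances between libraries of 1 diet were larger than the median fold change between diets of 0.09. The spread of single members was not large in itself. Their pooled within-group SD had a median of 0.317 on the log2 scale, beside 0.270 for all rows, and the highest library was 1.74-fold above the lowest in the median member, beside 1.68-fold in the median row. The range among members was from 1.22-fold in STAT2 to 5.17-fold in CXCL10.

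**Figure D3:**
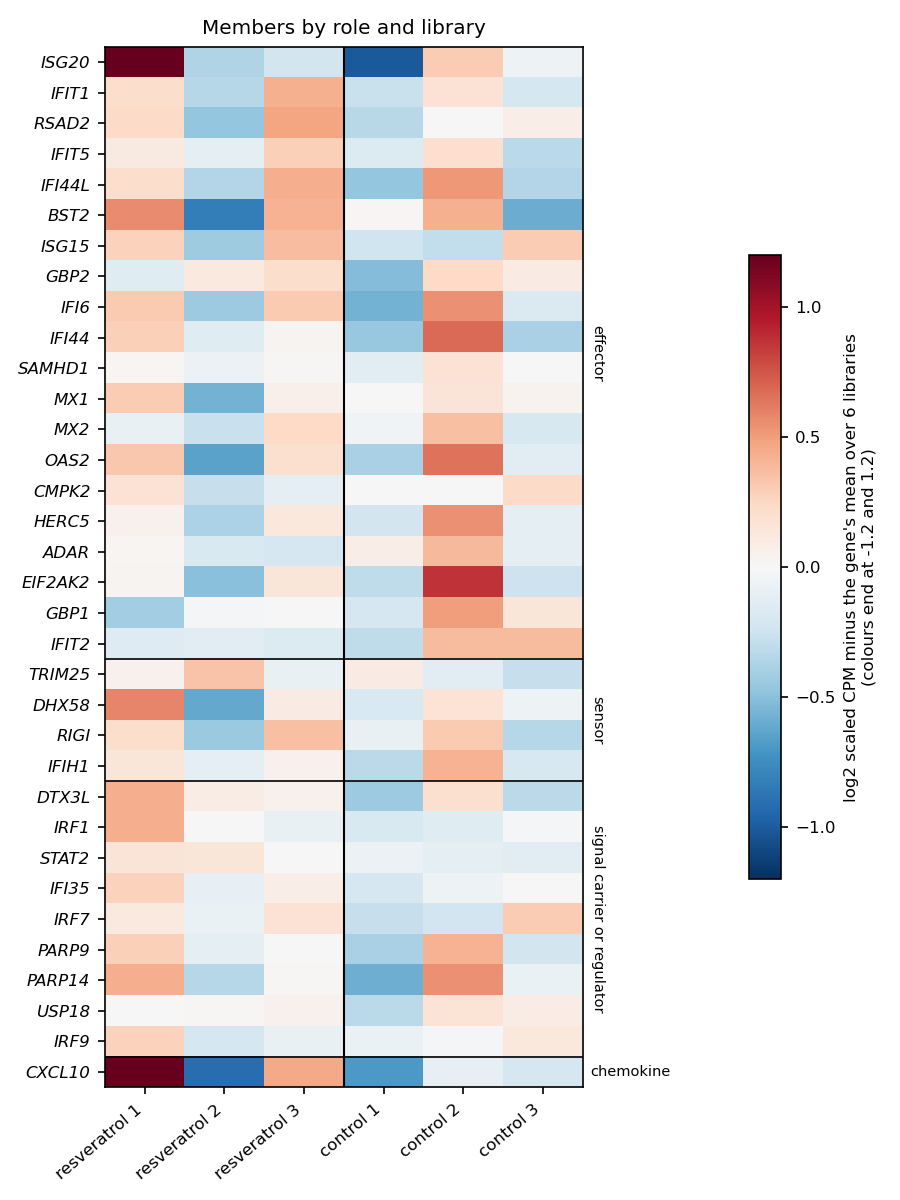
Log2 scaled CPM of each tested member minus its mean over the 6 libraries, with resveratrol left of control and members grouped by role. Control 2 is red across most effectors, resveratrol 1 lies above the mean for all 9 signal carriers and regulators, and resveratrol 2 and control 1 are mostly blue.

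Roles differed in which library was highest. For 12 of 20 effectors the highest library was control 2, which was highest for 28.1% of all rows. EIF2AK2, OAS2, IFI6, IFI44, IFI44L, HERC5, GBP1 and IFIT2 were among them. For 5 of 9 signal carriers and regulators the highest library was resveratrol 1, which was highest for 11.2% of all rows, and control 2 was highest for 3 of them. The difference between the roles was not tested. Control 2 was also the shallowest library and stands apart in that it was highest for 28.1% and lowest for 27.9% of all rows, and the part of its depth in these values was not tested. On the TPM scale 22 of 34 members were highest in control 2, but so were 47.8% of all rows.

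The rest of the pathway was described from lists of ligands, receptors, adaptors, regulators and other induced genes. Of 8 interferon ligands listed, 4 had a row, and 3 of these lay below the filter. IFNB1 had 2, 0 and 0 reads in resveratrol, against 1, 0 and 0 reads in control, and IFNE had no reads in any library. IFNG, the gene of interferon gamma, had 9, 2 and 7 reads in resveratrol, against 1, 0 and 2 reads in control, too few to pass the filter. IFNK, a type I interferon best known from keratinocytes, had 24, 25 and 15 reads in resveratrol, against 33, 40 and 22 reads in control, with a log2 fold change of -1.19 (SE 0.50, unadjusted p = 0.0380, adjusted p = 0.733). All 3 resveratrol libraries of IFNK lay below all 3 control libraries in scaled CPM, as in 6.97% of all rows. Its 95% interval was -2.29 to -0.08.

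None of the 9 receptors, kinases and STAT proteins tested passed, and none had an unadjusted p under 0.05. The receptor subunits IFNAR1 and IFNAR2 gave log2 fold changes of -0.24 (SE 0.19) and 0.01 (SE 0.15), and IFNGR1 and IFNGR2 of 0.11 (SE 0.15) and 0.19 (SE 0.18). JAK1 and STAT3 gave log2 fold changes of -0.08 (SE 0.16) and -0.19 (SE 0.15). In STAT3 every resveratrol library lay below every control library in scaled CPM, as in 6.97% of all rows.

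Of the 16 adaptors, kinases and factors that induce interferon, none had an unadjusted p under 0.05. Their median log2 fold change was 0.08, beside -0.0075 over all rows. By limma on log2(TPM + 0.5) it was -0.0096, beside -0.079 over all rows. TICAM1 and TRAF3, which signal from TLR3, gave log2 fold changes of -0.41 (SE 0.26) and -0.32 (SE 0.20). MYD88, the adaptor of the other endosomal receptors, had one of -0.21 (SE 0.17), and TLR3 itself one of 0.36 (SE 0.35). In TRAF3, 1 of the 16, every resveratrol library lay below every control library in scaled CPM, as in 6.97% of all rows. The nearest libraries were resveratrol 2 at 9.45 and control 2 at 9.48 scaled CPM. Of 10 negative regulators, 1 was lower at an unadjusted p under 0.05, where 4.32% of all rows were. This was PTPN1, a phosphatase that acts on JAK2 and TYK2, with 17.8, 19.7 and 18.4 scaled CPM in resveratrol, against 22.1, 28.3 and 22.9 scaled CPM in control (log2 fold change -0.39, SE 0.16, adjusted p = 0.733). PTPN6, SOCS3 and CISH gave log2 fold changes of 0.22, -0.28 and 0.31. Of the 10 negative regulators, 3 estimates lay above 0 and 7 below, with a median of -0.12, beside -0.0075 over all rows. By limma on log2(TPM + 0.5) that median was -0.18, beside -0.079 over all rows.

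Of 42 other interferon-induced genes tested, 30 estimates lay above 0 and 12 below, where 48.8% of all rows were above 0. The median was 0.10. By limma on log2(TPM + 0.5), 21 lay above 0 and 21 below, with a median of -0.010, beside -0.079 over all rows. None passed the adjusted threshold by edgeR. At an unadjusted p under 0.05, 2 of 42 were higher in resveratrol, where 2.21% of all rows were, and 1 was lower, where 4.32% were. CXCL9, a chemokine induced by interferon gamma that shares its receptor with CXCL10, measured 7.95, 2.495 and 5.27 scaled CPM in resveratrol, against 2.16, 2.36 and 3.32 scaled CPM in control (log2 fold change 0.997, SE 0.40, adjusted p = 0.733). As with CXCL10, resveratrol 1 was highest and resveratrol 3 next, and without resveratrol 1 the log2 fold change was 0.57. For PML, the scaffold of nuclear bodies, the log2 fold change was -0.48 (SE 0.19). For IFI30, a thiol reductase of antigen processing, it was 0.40 (SE 0.18). PSMB10, an immunoproteasome subunit, had one of 0.46 (SE 0.21, unadjusted p = 0.0558).

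Markers of immune cells moved with some of these values and not with others. All 14 macrophage markers tested had estimates above 0, where 48.8% of all rows did. At an unadjusted p under 0.05, 8 of 14 were higher in resveratrol, where 2.21% of all rows were. The summed level of the macrophage markers was 809 to 1189 TPM in resveratrol and 635 to 742 TPM in control, and none of the 14 was at 0. The part of macrophages in the members' values was not tested. MSR1 and LYZ gave log2 fold changes of 0.69 (SE 0.18) and 1.03 (SE 0.27), adjusted p = 0.733 each. In resveratrol, 14, 9 and 12 of 14 macrophage markers lay above their own mean, against 4, 0 and 0 in control. For the members these counts were 30, 5 and 26 of 34 in resveratrol, against 3, 26 and 10 of 34 in control. Each library had 48.5% to 50.4% of all rows above their mean.

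T and NK cell markers were highest in resveratrol 1 for 11 of 12 tested. Their summed level was 61.3, 26.6 and 28.7 TPM in resveratrol, against 32.4, 34.1 and 29.2 TPM in control, and none was at 0 in every library. Of the 12 estimates, 9 lay above 0 and 3 below, with a median of 0.24. None had an unadjusted p under 0.05 by edgeR. By limma on log2(TPM + 0.5), 7 lay above 0 and 5 below, with a median of 0.094, beside -0.079 over all rows. CD2 and KLRK1, named for their small p-values, gave log2 fold changes of 0.65 (SE 0.32) and 0.60 (SE 0.44). Resveratrol 1 was likewise the highest library for CXCL9 and for 10 of 34 members, CXCL10 and IRF1 among them. It was highest for 10 of 14 macrophage markers too, beside 11.2% of all rows. The median neutrophil and mast cell marker stood at 0.80 there in log2 deviation. The part of any of these cells in those values was not tested. As log2 deviation from its mean, the median T and NK cell marker lay at 0.89, -0.31 and -0.34 in resveratrol, against -0.09, -0.35 and 0.12 in control.

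All 5 neutrophil and mast cell markers tested had estimates above 0 (4 by limma on log2(TPM + 0.5)). At an unadjusted p under 0.05, 3 of 5 were higher in resveratrol, where 2.21% of all rows were. The summed level of the neutrophil and mast cell markers was 148 to 272 TPM in resveratrol and 100.2 to 144 TPM in control. The part of these cells in the members' values was not tested. The B cell markers CD79A, CD79B, MS4A1 and PAX5 lay below the filter, as did FLT3, SPIB and XCR1 of dendritic cells. The median log2 fold change was -0.05 over the 4 dendritic cell markers tested, 0.08 over 6 endothelial markers and 0.06 over 8 markers of stromal progenitors. Of the 8 stromal markers, 1 was lower at an unadjusted p under 0.05, where 4.32% of all rows were. This was the collagen gene COL1A1, with a log2 fold change of -1.40 (SE 0.52, adjusted p = 0.733). Control 1, where most members stood low, also stood apart in the summed level of stromal markers, with 11844 TPM against 5191 to 7420 TPM in the other 5 libraries. It was lowest in adipocyte markers, with 17665 TPM against 21604 to 27308 TPM, and the part of this in the members' values was not tested. Tendon and cartilage markers had a median log2 deviation of 3.09 in control 1 and 1.25 in control 3, and it was below 0 in the remaining libraries. Of their estimates, 7 of 7 lay below 0. At an unadjusted p under 0.05, 4 of 7 were lower, where 4.32% of all rows were. Over the 9 adipocyte markers the median was 0.19, with 1 of them higher at an unadjusted p under 0.05, where 2.21% of all rows were.

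**Figure D4:**
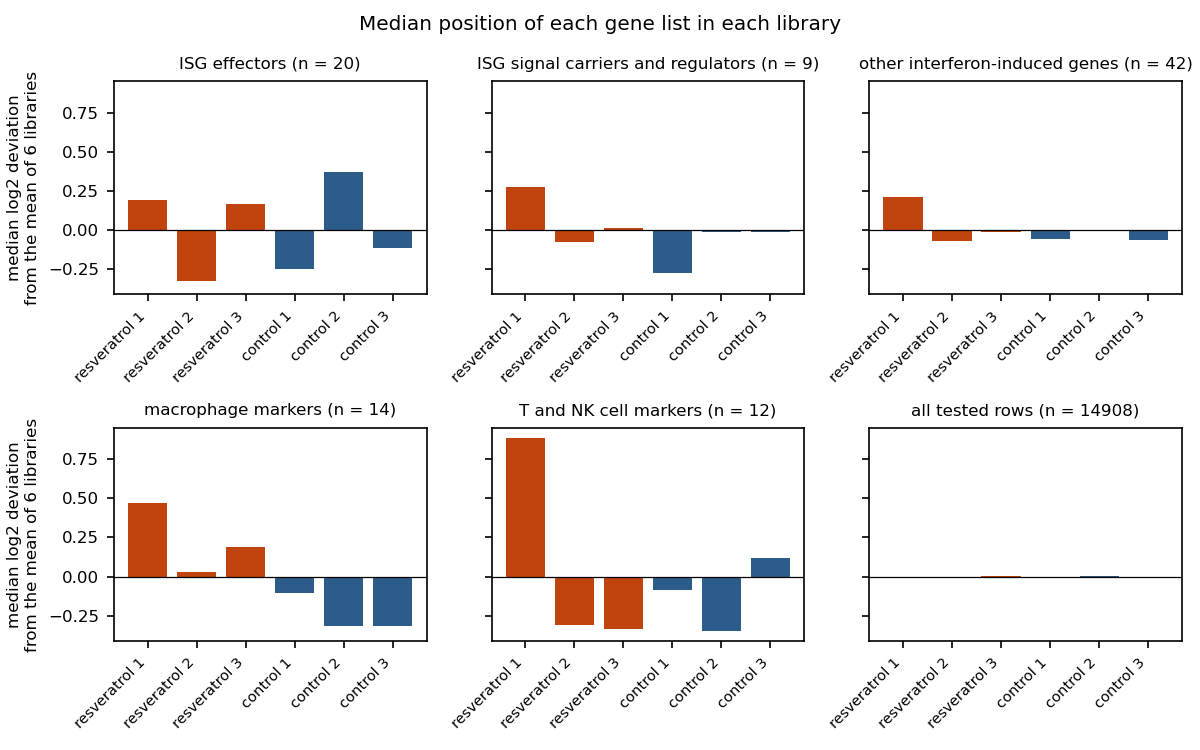
Median log2 deviation of each gene list from the mean of the 6 libraries, by library, with resveratrol in red and control in blue. Effectors are high in resveratrol 1, resveratrol 3 and control 2, whereas macrophage markers are low in all control libraries and T and NK cell markers are high in resveratrol 1.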

How the data were processed

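Each library has 1 deposited table of 22844 rows that pairs raw counts of reads with TPM, per the file headers. A deposited series table holds the same TPM for 14777 rows and was used as a check alone. The submitters' processing notes name Bowtie 0.12.2 together with mm8 and mm9, which are mouse builds, although the rows carry pig identifiers. No source used here gives the pig build, its annotation, the counter or whether strand was used, so no coordinates are printed. The RefSeq spans of 11 members overlap another gene, among them STAT2 (with IL23A) and CXCL10 (with ART3). Whole spans were compared, without regard to exons or strand, so whether reads of these 11 members are shared is not known. Reads of close paralogs (MX, IFIT, OAS and GBP genes) cannot be assigned with certainty.

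Symbols came from a table that matched 14750 rows. A row was kept where it averaged 0.5 TPM or more (14908 rows). TMM-scaled counts entered edgeR 4.0.16 in R 4.3.3 (quasi-likelihood, robust), resveratrol over control, and p-values were adjusted by Benjamini-Hochberg across the kept rows. The common biological coefficient of variation was 0.235. The SE is the log2 fold change divided by the square root of F. Deviations use log2 CPM with a prior count of 2. Alternatives used DESeq2 1.42.0, limma 3.58.1 on log2 TPM, other scalings and filters, a replicate block and each library left out.

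Values in every library are given for a preset set of members (MX1, ISG15, IFIT1, RSAD2, CXCL10, STAT2, IRF7 and IRF9), for the 5 largest fold changes in each direction and for the 3 highest levels. Pathway genes are IFNAR1, IFNAR2, JAK1 and up to 4 per list by smallest p, and cell markers up to 2 per list. Genes outside this rule were chosen after their values were seen. The members and lists were chosen with earlier results of these data known. A planned search of promoters for interferon response motifs was not run. Some genes of the lists are not reported here.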

Additional observations from a re-analysis of the deposited data

How the results depend on the processing

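No member was called under any of 16 alternatives, and the replicate block left the count of called rows at 0. The 0 rows called became 40 with DESeq2, and 0 to 5 when a library was left out, with 5 without control 2. The 0 members higher at an unadjusted p under 0.05 became 1 with DESeq2 (CXCL10). Leaving out a library gave 0 to 3, with 3 without control 2 (DTX3L, IFI44 and IFI44L) and 1 without resveratrol 2 (CXCL10). The 0 members lower became 0 to 1, with 1 without control 1 (IFIT2). Leaving out the library that opposes a difference can lower its p by that choice alone. The share of all rows in the same fits is not given here. With all libraries kept, the median log2 fold change of the members was lowest in limma on log2(TPM + 1), at -0.00469, beside -0.073 over all rows. It was highest with library totals alone, at 0.14, beside 0.057 over all rows. With a library left out it ran from -0.06 (without control 1) to 0.23 (without control 2), beside -0.0074 and 0.0092 over all rows. In limma on log2(TPM + 0.5) the median over all rows was -0.079, and 6 members changed sign. Over the 16 alternatives 15 members kept their sign. Same-numbered libraries had deviations correlated at 0.16, 0.074 and 0.20, so the numbers were not taken as pairs, although every library correlated best with its own number, a hint from the data and not the design. With the replicate block the members' median was 0.12, and 0 members had an unadjusted p under 0.05. With 3 libraries a group, the 95% interval lay within a 1.5-fold change for 10 of 34 members. OASL, IFNB1, IFNE and IFNG had at most 9 reads in a library and were not tested.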
